A study of Mus musculus with 6 samples.

Results

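The genes described here encode the proteins that cut chromosomes in a programmed way at the start of meiosis in the mouse: Ankrd31, Rec114, Mei4, Mei1, Iho1 (Ccdc36 in the annotation used), Spo11 and Top6bl (Gm960 in the annotation). They were picked by name, by matching the Ensembl identifiers of the count table to GENCODE M21, and all 7 were found among 49671 gene rows. The rule uses no measured value, although the genes were proposed with earlier results of these data known. Whole-testis RNA was sequenced from C57BL/6J animals aged 12 days post-partum, of which 3 were Ankrd31-/- (knockout) and 3 Ankrd31+/+ (wild type). The labels give no other allele or agent and do not describe the knockout allele, so which exons it removes or disrupts is not given in the sources used here. Each library was made with a strand-specific kit and held 21972002 to 22415062 counts in the knockout group, against 21014060 to 22706296 in the wild-type group.

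Meiotic recombination starts when SPO11, a relative of the catalytic subunit of an archaeal topoisomerase, cuts both DNA strands together with its partner TOPOVIBL, the product of Top6bl. SPO11 needs a set of accessory proteins on the chromosome axis: REC114 and MEI4 form a complex, IHO1 ties that complex to the axis protein HORMAD1, and MEI1 is also required for the breaks. ANKRD31 binds REC114, and in the mouse it is needed for breaks in the pseudoautosomal region, the short stretch that the X and Y chromosomes share. In the juvenile testis these genes belong to the first wave of germ cells as it enters meiotic prophase.

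The 7 genes lie on 5 chromosomes of mm10, with 3 of them on chromosome 9. Ankrd31 (ENSMUSG00000109561) spans 96748272 to 96910039 on chromosome 13, plus strand, with 6208 exon bases in 27 exon blocks. Rec114 (ENSMUSG00000074269) spans 58652850 to 58743964 on chromosome 9, minus strand, Mei4 (ENSMUSG00000043289) spans 81863670 to 82206007 on the same chromosome, plus strand, and Iho1 (ENSMUSG00000047220) spans 108403611 to 108428484, minus strand. Mei1 (ENSMUSG00000068117) spans 82069997 to 82126811 on chromosome 15, plus strand, Spo11 (ENSMUSG00000005883) spans 172977700 to 172993576 on chromosome 2, plus strand, and Top6bl (ENSMUSG00000071691) spans 4625841 to 4698668 on chromosome 19, minus strand. All are annotated as protein coding. Of the genes that overlap a member's span, Nptn alone shares exon bases with it: 344 of the 1277 exon bases of Rec114 (26.9%) lie in exons of Nptn on the opposite strand, and Nptn had 3089 to 3213 counts in knockout and 2934 to 3223 in wild-type libraries. The strand setting of the counting is not given in the sources used here, so Rec114 counts in that stretch are uncertain. Spo11 is transcribed as several isoforms, and the table gives a single count per gene.

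RefSeq promoter windows (build GRCm38.p6, 250 bases before to 50 after the RefSeq start) were found for 6 of the 7 genes, all but Spo11. The windows of 3 are printed 5′ to 3′ on the strand of the gene. Ankrd31 is the gene disrupted here, and Rec114 encodes its binding partner. Mei4 has the highest knockout level relative to wild type among the genes whose groups did not overlap in CPM. The window of Ankrd31 is chr13:96748043-96748342 (plus strand), that of Rec114 chr9:58741510-58741809 (minus strand) and that of Mei4 chr9:81863420-81863719 (plus strand). The windows of Rec114 and Mei1 (chr15:82082226-82082525) lie wholly inside the gene spans given above, away from their 5′ ends. That of Iho1 (chr9:108431777-108432076) lies wholly outside its span. Motif matches in these windows therefore do not describe the 5′ end of the span counted. Capitals mark matches to the motifs searched.
Ankrd31: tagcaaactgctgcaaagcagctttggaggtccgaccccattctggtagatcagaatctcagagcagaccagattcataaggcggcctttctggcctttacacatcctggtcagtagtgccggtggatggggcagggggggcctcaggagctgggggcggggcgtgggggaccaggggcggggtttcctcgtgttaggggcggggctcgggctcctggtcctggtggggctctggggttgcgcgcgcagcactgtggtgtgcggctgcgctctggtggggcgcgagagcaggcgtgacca
Rec114: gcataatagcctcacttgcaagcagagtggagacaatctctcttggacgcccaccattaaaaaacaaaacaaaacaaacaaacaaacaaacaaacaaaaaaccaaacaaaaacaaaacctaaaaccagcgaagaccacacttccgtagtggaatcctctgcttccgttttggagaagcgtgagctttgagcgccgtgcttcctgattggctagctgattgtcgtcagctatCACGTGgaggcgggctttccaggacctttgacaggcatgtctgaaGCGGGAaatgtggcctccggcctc
Mei4: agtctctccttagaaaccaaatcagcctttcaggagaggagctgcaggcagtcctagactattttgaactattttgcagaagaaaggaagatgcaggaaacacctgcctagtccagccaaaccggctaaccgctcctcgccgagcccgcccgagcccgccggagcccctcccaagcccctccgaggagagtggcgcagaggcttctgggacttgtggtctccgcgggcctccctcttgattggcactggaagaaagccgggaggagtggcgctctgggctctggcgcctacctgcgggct
The motifs were the E-box CACGTG, the E2F core TCCCGC and the motif of the meiotic entry factors STRA8 and MEIOSIN, CNCCTCAG, each on both strands. Rec114 alone of the 6 windows held a match, to the E-box at bases 232 to 237 and to the E2F core at bases 277 to 282. Bases are counted from 1 at the 5′ end, and the matches do not overlap each other. The E2F core reads on the strand opposite to the one printed, so it is printed as GCGGGA. Over 32817 RefSeq windows of the same length, 7.1% held the E-box, 20% the E2F core and 7.9% the STRA8 and MEIOSIN motif. These matches are a description only. The windows of Ankrd31, Iho1 and Mei4 were rich in G and C, at 65.3%, 61.7% and 60.7%, those of Rec114, Mei1 and Top6bl stood at 47.7%, 46.7% and 46.3%, and the median of all windows was 52.7%.

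The tissue label was checked against marker genes. Sertoli cell markers were present in every library, with a summed level of 5872 to 6200 CPM (counts scaled by library size and TMM factor) in knockout and 5374 to 6035 CPM in wild-type testes, and 7 of 7 were tested. Early meiotic prophase genes, a list of 15 that includes the synaptonemal complex genes Sycp1 and Sycp3, summed to 2197 to 2839 CPM in knockout and 1840 to 2835 CPM in wild-type testes. The 6 spermatid markers summed to 3.47 to 3.8 CPM in knockout and 2.94 to 3.67 CPM in wild-type testes, most of it from Spaca1, and Tnp2, Prm1 and Prm2 had 0 counts in all 6 libraries. Some libraries stood apart: epididymis and rete markers summed to 4.55 to 12.4 CPM in the knockout libraries, against 68.2 CPM in wild-type replicate 3 and at most 6.33 CPM in the other wild-type libraries. The 5 pachytene markers summed to 68.3 to 72.1 CPM in the knockout libraries, against 91.4 CPM in wild-type replicate 1 and 64.9 and 68.7 CPM in the other wild-type libraries; of these, Ldhc stood at 0.99 to 1.69 CPM in the knockout libraries, against 7.92 CPM in wild-type replicate 1 and at most 0.90 CPM in the other wild-type libraries. Leydig cell markers summed to 749 CPM in knockout replicate 2, against 246 to 388 CPM in the other 5 libraries.

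Ankrd31, the targeted gene, stood in the knockout testes at 55.9% of its wild-type level. It had 897, 724 and 844 counts in knockout replicates 1, 2 and 3, against 1876, 1189 and 1336 in wild-type replicates 1, 2 and 3. Every knockout library was below every wild-type library, as was true of 3.5% of the 18040 tested genes. The means were 37.3 ± 3.89 CPM in knockout and 66.8 ± 16.6 CPM in wild-type testes (SD, n = 3 each), and the exact two-sided permutation test gave p = 0.1, the smallest that 3 libraries against 3 allow. The log2 fold change was -0.84 ± 0.17 (SE; 95% interval -1.24 to -0.43). In edgeR's quasi-likelihood test without a replicate block the unadjusted p was 0.00154, rank 7 of all tested genes, and the adjusted p was 1. With replicate number added as a block, it was -0.82 ± 0.07 (95% interval -0.98 to -0.66) at rank 1 of all genes, and Ankrd31 fell in edgeR at an adjusted p of 0.00505. That fit called 0.0443% of the tested genes (8 of 18040) and 0.0111% as lower (2 of 18040), and the fit without the block called 0%, where 374 genes had an unadjusted p under 0.05, DESeq2 called 2 genes, Ankrd31 among them, and limma voom 0. Ankrd31 was lower in 3 of 3 pairs, as were 14.7% of all tested genes. Without pair 3 the blocked log2 fold change was -0.86 and the edgeR adjusted p 0.316. The counts cover all exons, so the level checks the genotype labels only through the total of the gene.

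**Figure D1:**
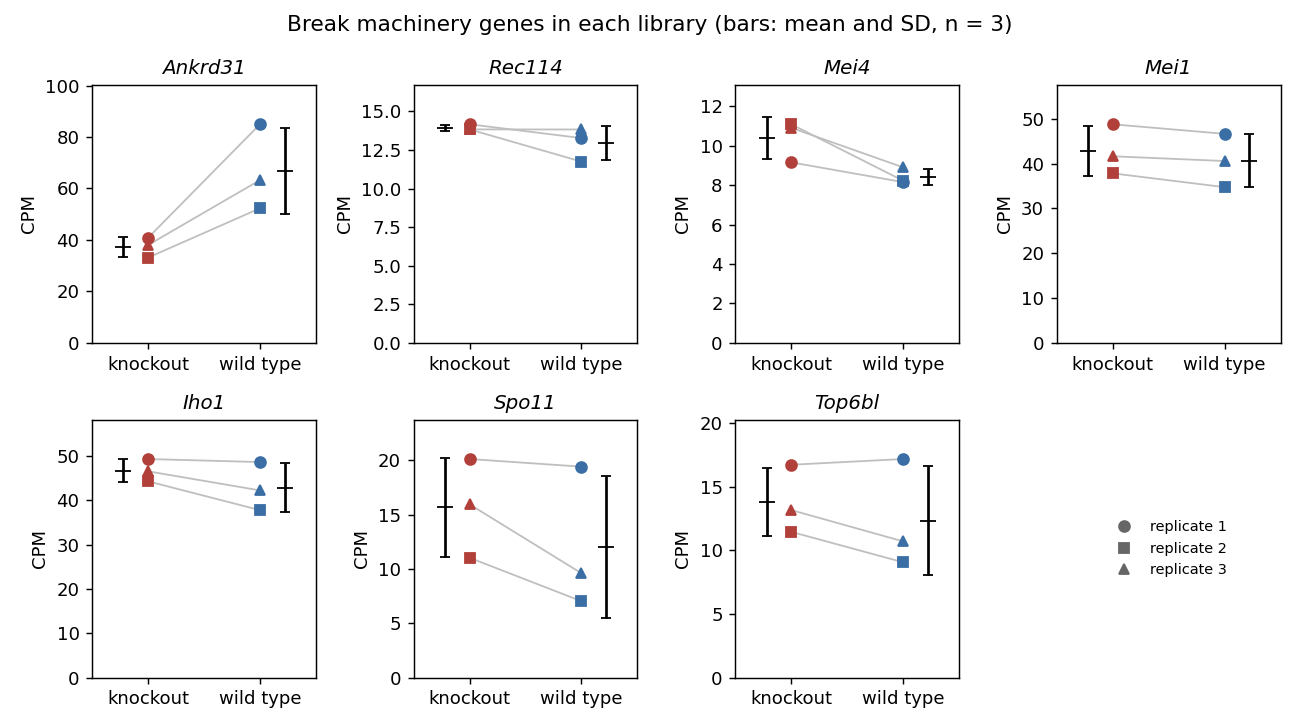
Level in CPM (vertical axes, from 0) of each gene in the knockout libraries (left, red) and the wild-type libraries (right, blue); symbols give the replicate number, grey lines join libraries of the same number, and bars give mean and SD (n = 3). Ankrd31 lies between 33.2 and 40.8 CPM in knockout and between 52.3 and 84.9 CPM in wild-type libraries, and for Spo11 and Top6bl both replicate 1 libraries stand above the others.

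The difference in Ankrd31 was more even between pairs when the gene was read against other meiotic genes of the same library. On the CPM scale the knockout level was 48.1%, 63.4% and 60.1% of the wild-type level in pairs 1, 2 and 3. Relative to the geometric mean of the early prophase list it was 47.9%, 51.1% and 52.7%, and relative to the geometric mean of the other 6 break machinery genes 46.1%, 50.3% and 50.6%. The log2 ratio of Ankrd31 to those 6 genes was 0.91, 0.89 and 0.94 in the knockout replicates, against 2.03, 1.88 and 1.92 in the wild-type replicates. Libraries of a genotype lay close together on this scale, and the genotypes did not overlap. The coefficient of variation of Ankrd31 was 10.4% in knockout and 24.9% in wild-type libraries in CPM. It was 5.69% in knockout and 3.18% in wild-type libraries relative to the early prophase list, and 1.57% in knockout and 5.2% in wild-type libraries relative to the 6 genes. The geometric mean of the early prophase list was 110.6, 80.4 and 94.9 CPM in knockout replicates 1 to 3, against 110.1, 64.7 and 83.2 CPM in wild-type replicates 1 to 3. In each genotype it ranked the libraries as Ankrd31 did, with replicate 1 highest and replicate 2 lowest. In bulk tissue, fewer cells of a type and less RNA per cell cannot be told apart, so neither scale is a level per cell.

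**Figure D2:**
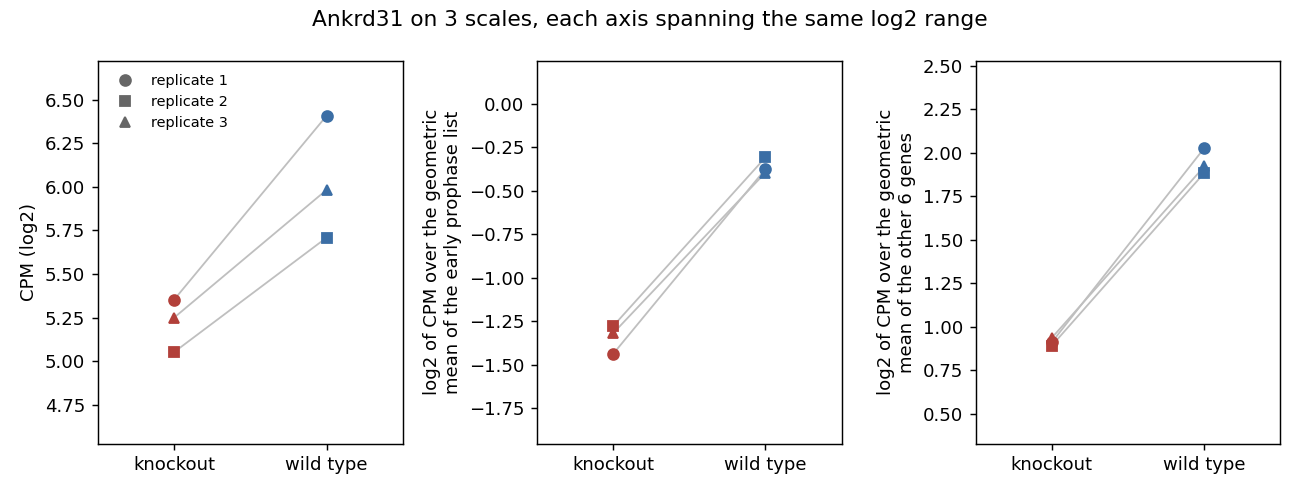
Ankrd31 in knockout (left in each panel, red) and wild-type libraries (right, blue) as log2 CPM, as log2 of its CPM over the geometric mean of the early prophase list, and over that of the other 6 genes; lines join libraries of the same replicate number and all vertical axes span the same log2 range. On the right-hand scale the knockout libraries lie at 0.91, 0.89 and 0.94 and the wild-type libraries at 2.03, 1.88 and 1.92.

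Per kilobase of exon, the 7 genes covered a range from Iho1 at the top to Mei4 at the bottom, and Ankrd31 moved down that order in the knockout. In knockout testes the mean RPKM (CPM per kilobase of exon) was 16.2 ± 0.87 for Iho1, 10.9 ± 0.15 for Rec114, 9.02 ± 1.17 for Mei1, 6.01 ± 0.63 for Ankrd31, 4.0 ± 1.16 for Spo11, 3.93 ± 0.77 for Top6bl and 2.52 ± 0.26 for Mei4 (SD, n = 3). Neighbours in that knockout order had ranges that did not overlap, except Spo11 and Top6bl. In wild-type testes the mean RPKM was 14.9 ± 1.89 for Iho1, 10.8 ± 2.68 for Ankrd31, 10.1 ± 0.84 for Rec114, 8.58 ± 1.26 for Mei1, 3.51 ± 1.22 for Top6bl, 3.07 ± 1.67 for Spo11 and 2.04 ± 0.10 for Mei4. In that wild-type order only Mei1 and Top6bl were neighbours whose ranges did not overlap, so that a lower group of Top6bl, Spo11 and Mei4 stood apart from an upper group of 4. Both orders depend on the summed exon length of each gene, which need not be the length of its main transcript. The place of Rec114, also next to Ankrd31, is uncertain, because 26.9% of its exon bases lie in exons of Nptn. Ankrd31 ranked 4 of 7 in each knockout library, against rank 2 in wild-type replicate 1 and rank 3 in wild-type replicates 2 and 3. Among all tested genes the mean wild-type RPKM of Iho1 stood at percentile 72 and that of Mei4 at percentile 29.9.

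**Figure D3:**
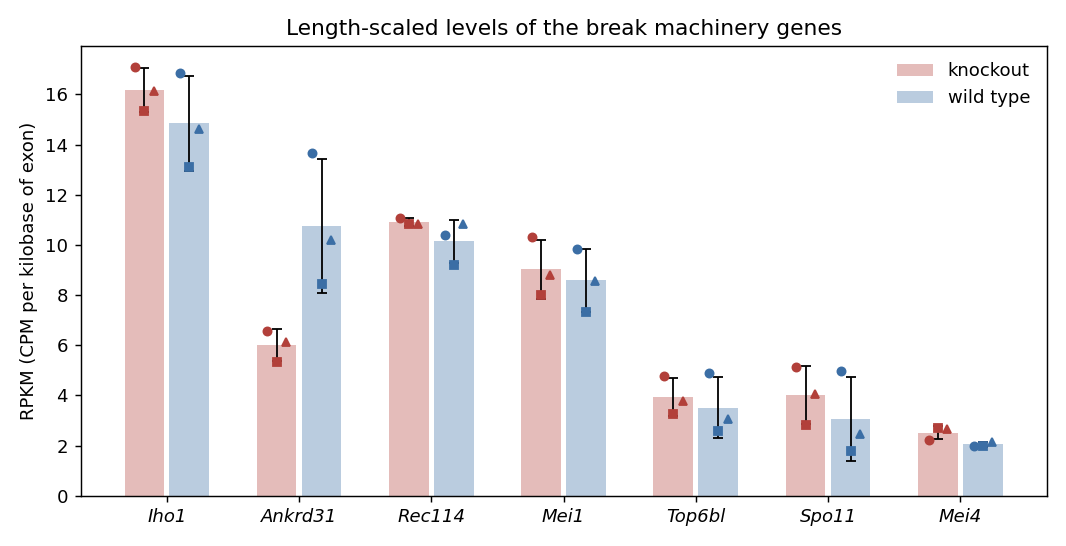
Length-scaled level in RPKM (vertical axis, from 0) of the 7 genes, ordered by the wild-type mean; for each gene the knockout bar (red) is left of the wild-type bar (blue), bars give the mean, whiskers the SD (n = 3) and symbols the libraries (circle, square and triangle for replicates 1, 2 and 3). Ankrd31 is the gene whose bars differ most, at 6.01 RPKM in knockout and 10.8 RPKM in wild-type testes.

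None of the 6 genes other than Ankrd31 passed the test, with or without the replicate block, in edgeR, DESeq2 or limma voom. Their log2 fold changes were 0.07 to 0.39, above 0 for 6 of 6 where 47.8% of all tested genes were above 0, and with libraries scaled to the early prophase list 3 of the 6 were above 0. Their median was 0.14, beside -0.005 for all tested genes. Of the 6, 5 were higher in all 3 pairs, as were 13.9% of all tested genes. Median log2 ratios of the 6 genes were 0.06, 0.29 and 0.22 in pairs 1, 2 and 3, and those of the early prophase list moved with them at -0.02, 0.28 and 0.22. Read against the geometric mean of the early prophase list, the 6 genes together stood at -2.35, -2.17 and -2.26 on the log2 scale in knockout replicates 1 to 3, against -2.40, -2.19 and -2.32 in wild-type replicates 1 to 3, with differences of 0.05, 0.02 and 0.06 in the pairs. That scaling set the median of all tested genes to -0.20 and the median of the 6 genes to -0.01. Without wild-type replicate 2 the median of the 6 genes was 0.04, and without wild-type replicate 1 it was 0.25.

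**Figure D4:**
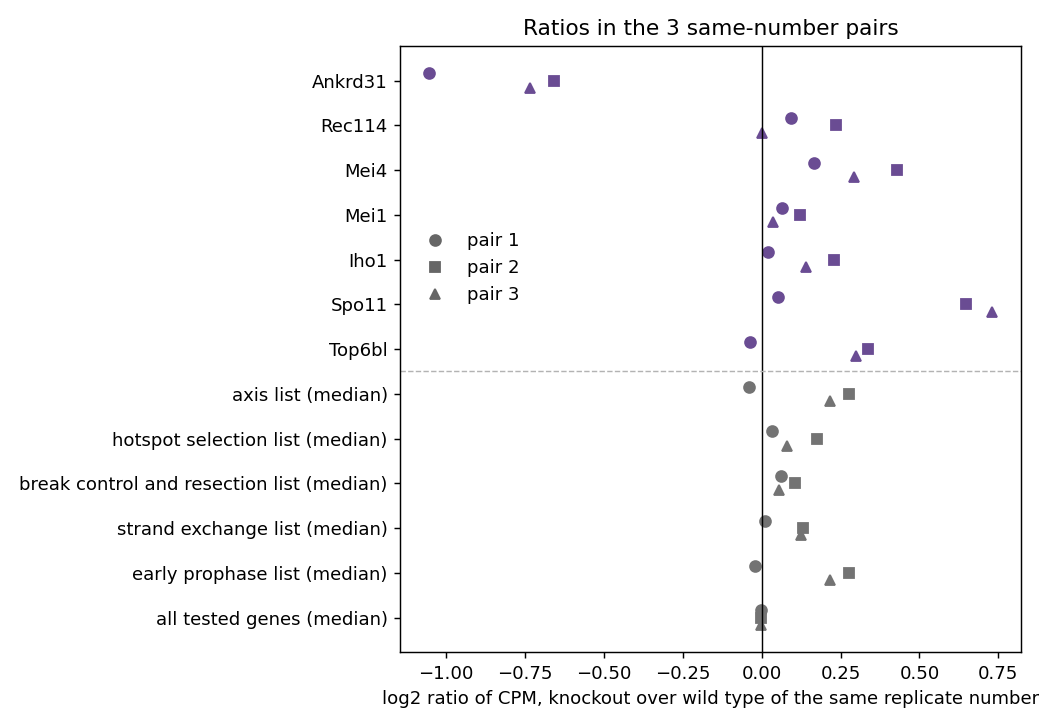
Log2 ratio of CPM, knockout over wild type of the same replicate number (horizontal axis), for each of the 7 genes (purple, above the dashed line) and for the medians of the gene lists and of all tested genes (grey); circle, square and triangle are pairs 1, 2 and 3. In pair 1 the 6 genes other than Ankrd31 lie between -0.04 and 0.17, and the median of the early prophase list is -0.02 in pair 1, 0.28 in pair 2 and 0.22 in pair 3.

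Among the partners of ANKRD31 on the axis, Mei4 and Rec114 had knockout libraries that all lay above the wild-type libraries, as 3.09% of all tested genes did. Mei4, whose product is the stable partner of REC114, had 9.15, 11.1 and 10.9 CPM in knockout replicates 1 to 3, against 8.15, 8.22 and 8.90 CPM in wild-type replicates 1 to 3. The gap between the genotypes was narrow, between 9.15 CPM in knockout replicate 1 and 8.90 CPM in wild-type replicate 3. These values rest on 201 to 242 counts in knockout and 180 to 188 in wild-type libraries, so that counting error alone was 6.43% to 7.45% of a single value. The log2 fold change of Mei4 was 0.30 ± 0.12 (SE; 95% interval 0.03 to 0.57; edgeR unadjusted p = 0.0334, adjusted p = 1). Rec114 had 14.2, 13.83 and 13.83 CPM in knockout replicates 1 to 3, against 13.3, 11.7 and 13.82 CPM in wild-type replicates 1 to 3. The lowest knockout library and the highest wild-type library of Rec114 were thus all but equal, and its log2 fold change was 0.11 ± 0.10 (95% interval -0.12 to 0.33). Relative to the early prophase list the groups of both genes overlapped. With libraries scaled to that list, the log2 fold change was 0.125 ± 0.327 for Mei4 and -0.069 ± 0.32 for Rec114 (SE).

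Iho1, whose product recruits the complex to the axis, and Mei1 showed overlapping groups. Iho1 had 49.4, 44.3 and 46.6 CPM in knockout replicates 1 to 3, against 48.7, 37.8 and 42.3 CPM in wild-type replicates 1 to 3. Mei1, a gene needed for break formation in the mouse, had 48.8, 37.8 and 41.6 CPM in knockout replicates 1 to 3, against 46.6, 34.7 and 40.6 CPM in wild-type replicates 1 to 3. In both genes replicate 1 was highest and replicate 2 lowest in each genotype. The log2 fold changes were 0.12 ± 0.10 for Iho1 (95% interval -0.09 to 0.34) and 0.07 ± 0.12 for Mei1 (95% interval -0.21 to 0.35). The direction of Mei1 turned when knockout replicate 1 or wild-type replicate 2 was left out (-0.03 each).

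The catalytic pair, Spo11 and Top6bl, varied most between libraries of a genotype. Spo11 had 20.1, 11.04 and 15.9 CPM in knockout replicates 1 to 3, against 19.4, 7.04 and 9.61 CPM in wild-type replicates 1 to 3. Top6bl had 16.7, 11.4 and 13.2 CPM in knockout replicates 1 to 3, against 17.2, 9.06 and 10.7 CPM in wild-type replicates 1 to 3. The replicate 1 libraries of both genotypes were close to each other, and knockout was above wild type in pairs 2 and 3. For Spo11 the log2 ratio was 0.05, 0.65 and 0.73 in pairs 1, 2 and 3, and for Top6bl -0.04, 0.34 and 0.30. The log2 fold change of Spo11 was 0.39 ± 0.42 (95% interval -0.66 to 1.43), and with the block 0.44 ± 0.13 (edgeR unadjusted p = 0.00706, adjusted p = 0.497). With the block 1349 of the 18040 tested genes had an edgeR unadjusted p under 0.05, Mei4 (0.0183) among them. In the fit without the block the log2 fold change of Spo11 was 0.92 without wild-type replicate 1 and 0.11 without wild-type replicate 2. Top6bl had 0.16 ± 0.25 (95% interval -0.41 to 0.73), and -0.02 without wild-type replicate 2. The ratio of Spo11 to Top6bl in RPKM was 1.08, 0.86 and 1.08 in knockout replicates 1 to 3, against 1.01, 0.69 and 0.80 in wild-type replicates 1 to 3, with overlapping groups.

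The genes of the machinery did not vary as a single block across libraries. Replicate 1 against the mean of replicates 2 and 3 gave a log2 ratio for Spo11 of 0.58 in knockout and 1.22 in wild-type testes, and for Top6bl of 0.44 in knockout and 0.80 in wild-type testes. The same ratio was 0.30 in knockout and 0.31 in wild-type testes for Mei1, 0.12 in knockout and 0.28 in wild-type testes for Iho1, and 0.03 in knockout and 0.05 in wild-type testes for Rec114. Mei4 went the other way, at -0.26 in knockout and -0.07 in wild-type testes. The wild-type value rests on 180 counts in replicate 1 against 187 and 188 in replicates 2 and 3. Counting error there was 7.29% to 7.45%, so its direction in wild-type testes is uncertain. The median of the early prophase list on this measure was 0.31 in knockout and 0.51 in wild-type testes. By the root mean square difference of centred log2 CPM over the 6 libraries, the most alike pair of members was Mei1 and Iho1 (0.071), followed by Rec114 and Iho1 (0.086), while Ankrd31 and Spo11 were the least alike (0.70). The measure is not scaled to a gene's own swing, so genes that vary little come out alike. That swing was 0.0897 for Rec114, 0.131 for Iho1, 0.167 for Mei1, 0.464 for Ankrd31 and 0.551 for Spo11.

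Among 16095 other genes with a mean of at least 1 CPM, the patterns closest to that of Ankrd31 were those of Olfr316, Gm36948 and Ackr2, an atypical chemokine receptor gene, at root mean square differences of 0.17, 0.18 and 0.19 over the 6 libraries. All 3 are low genes, at 0.68 to 1.23 CPM in knockout and 1.14 to 1.95 CPM in wild-type libraries, where Ankrd31 itself swings by 0.46 on the same measure. The gene closest to Iho1 was Nabp1, which encodes a single-stranded DNA binding protein (0.017), and the gene closest to Mei1 was Far1, which encodes a fatty acyl-CoA reductase (0.028). Il1rap was closest to Rec114 (0.018), Gm17048 to Mei4 (0.049), Elavl3 to Spo11 (0.085) and Sdk1 to Top6bl (0.035). The libraries share depth, tissue and genotype groups, so these are descriptions of 6 profiles.

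Genes that act around the breaks were read in 4 further lists, of which none of the 30 genes passed over all tested genes, with or without the block, in edgeR. Of the 9 axis genes 8 had a log2 fold change above 0 (median 0.14), of 5 hotspot selection genes 3 (median 0.11), of 6 break control and resection genes 5 (median 0.05) and of 10 strand exchange genes 10 (median 0.11), where 47.8% of all tested genes were above 0. Together 14 of the 30 were higher in all 3 pairs, as were 13.9% of all tested genes, and 8 of the 30 also belong to the early prophase list. In that early prophase list 15 of 15 genes had a log2 fold change above 0 (median 0.15), and 5 were higher in all 3 pairs. The lean above 0 was thus not particular to the 4 lists. Smc1b, a meiotic cohesin subunit gene of the axis, averaged 402 ± 40.4 CPM in knockout and 361 ± 61.1 CPM in wild-type testes, with a log2 fold change of 0.15 ± 0.12. The cohesin genes Rad21l and Stag3 had 0.14 ± 0.20 and 0.07 ± 0.12. Hells, a chromatin remodeller that acts with the hotspot-choosing methyltransferase PRDM9, averaged 460 ± 16.7 CPM in knockout and 418 ± 24.7 CPM in wild-type testes, with 0.14 ± 0.07. The knockout libraries of Hells and of the resection gene Mre11a all lay above the wild-type libraries, 2 of the 30 genes, as 3.09% of all tested genes did. For Mre11a the lowest knockout library (66.5 CPM) and the highest wild-type library (66.2 CPM) were all but equal. The histone reader gene Zcwpw1 had 0.11 ± 0.12 and Ewsr1, which encodes an RNA-binding protein that binds PRDM9, -0.08 ± 0.10.

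Of the genes that process the breaks, Dmc1, the meiotic strand exchange recombinase gene, averaged 93.9 ± 15.6 CPM in knockout and 78.8 ± 19.2 CPM in wild-type testes. Its log2 fold change was 0.25 ± 0.19, and with the block 0.26 ± 0.05 (edgeR unadjusted p = 0.000228, adjusted p = 0.142). With the block 1349 of the 18040 tested genes had an edgeR unadjusted p under 0.05, among them Smc1b (0.00439) and Hells (0.00673). Dmc1 was higher in 3 of 3 pairs (log2 ratios of 0.15, 0.35 and 0.30), as were 13.9% of all tested genes. Dmc1 is itself on the early prophase list, and with libraries scaled to that list its log2 fold change was 0.096. Brca2, which loads recombinases, had 0.13 ± 0.10, and the recombinase cofactor gene Sfr1 0.07 ± 0.06. The resection genes Rbbp8, Exo1 and Mre11a had 0.12 ± 0.09, 0.10 ± 0.07 and 0.05 ± 0.06. The log2 fold changes of Smc1b, Rad21l, Stag3, Hells, Zcwpw1, Brca2, Sfr1, Rbbp8, Exo1 and Mre11a were below 0 with libraries scaled to the early prophase list.

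**Figure D5:**
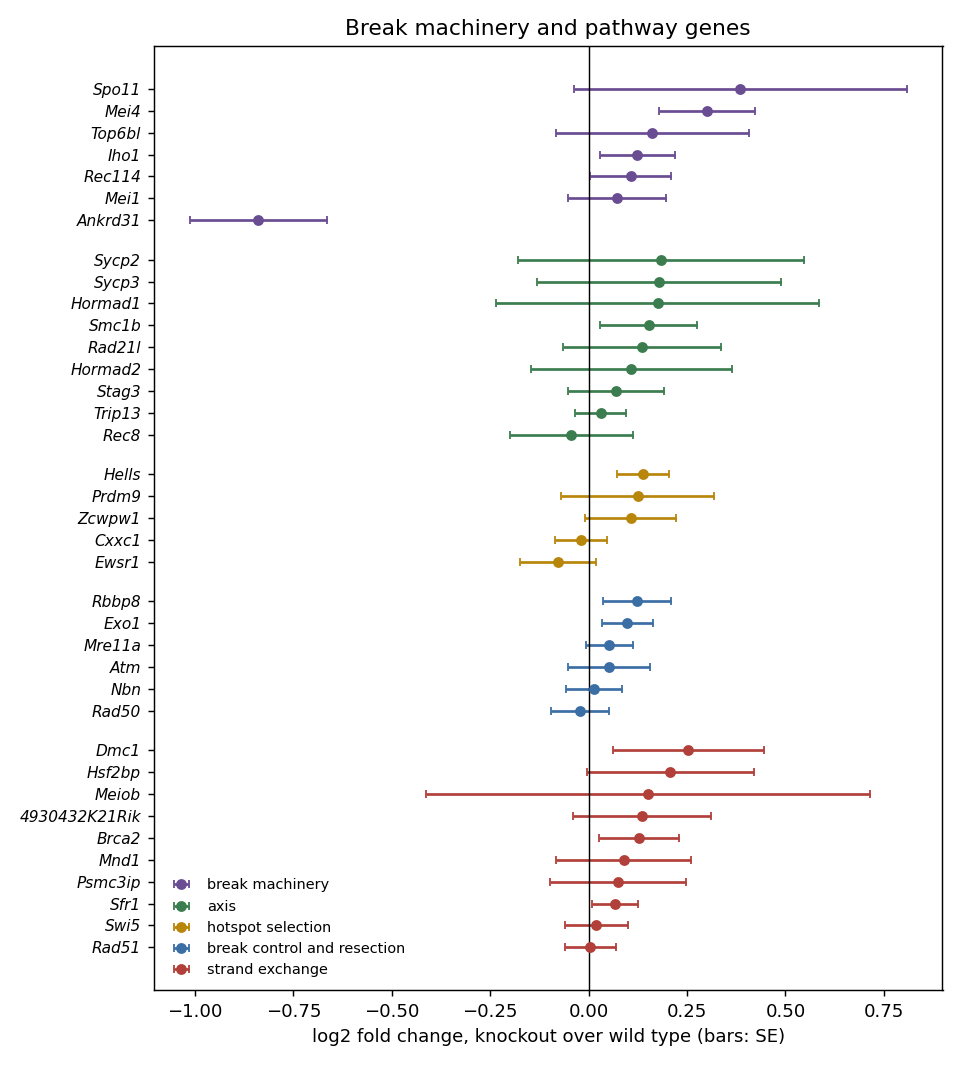
Log2 fold change, knockout over wild type (horizontal axis), with SE, for the 7 break machinery genes and the 30 genes of the axis, hotspot selection, break control and resection, and strand exchange lists, sorted within each list (colours). Ankrd31 at -0.84 stands apart, and the other genes lie between -0.08 and 0.39.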

How the data were processed

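The authors deposited a table of raw counts, 1 column per library and not normalized. Tools named in the submitters' processing notes are bcl2fastq 2.19.1, GSNAP, featureCounts 1.6.0 and the build mm10. How strand and multiply matching reads were handled, and which annotation release and filters applied, is not stated there. Summed exon length per gene comes with the table, per the file headers. Identifiers of 49412 of 49671 gene rows matched GENCODE M21, and 92 spike-in rows (1 count in all) were dropped. The test was edgeR 4.0.16 under R 4.3.3 with filterByExpr, TMM and a robust two-sided quasi-likelihood fit over 18040 genes, Benjamini-Hochberg adjustment and a threshold of 0.05, tried first on simulated counts; DESeq2 1.42.0 and voom of limma 3.58.1 were alternatives. RPKM is CPM per kilobase of exon. Same-number pairs were part of the rule that picked the genes. Libraries of the same number deviated together from their group means (correlations 0.42, 0.26 and 0.28, each over 0.1). No label says what a shared number means. Correlations between libraries of different number are not given here, and the blocked p-values rest on that choice of pairs. The labels name 3 mice per genotype, and no litters or days. Besides the 7 members, the text names the 3 genes of each further list with the smallest unadjusted p and any that passed, genes overlapping a member, and the genes of most similar profile, 3 for Ankrd31 and 1 for each other member (log2 CPM, prior count 2). Spata22, of the strand exchange and early prophase lists, was not matched and not used. Members and lists were chosen with earlier results of these data known. Counting errors cover the sampling of reads only. The intervals of the log2 fold changes come from the edgeR fit and also take in its estimate of the spread between libraries.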

Additional observations from a re-analysis of the deposited data

How the results depend on the processing

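Ankrd31 was lower in the knockout in 20 of 20 alternatives, with log2 fold changes of -0.99 to -0.63, and passed in 7 of them. These were DESeq2 (-0.84, adjusted p = 0.00163), the replicate block in edgeR (-0.82), DESeq2 with replicate block (-0.82, 6.48e-11), limma voom with replicate block (-0.83, 0.0179), early prophase scaling with the block (-0.99, 4.67e-12), and the block without pair 1 (-0.69, 0.00435) or pair 2 (-0.90, 4.24e-08), with adjusted p-values in brackets. Without a single library it ranged from -0.99 to -0.63 and did not pass in edgeR. The count of genes called, 0 in the edgeR fit without the block, was 8 with the block (6 higher, 2 lower), 1 with no filter on low counts (1 higher), 2 with DESeq2 (1 higher, 1 lower) and 14 with DESeq2 and the block (11 higher, 3 lower). It was 1 with limma voom and the block (1 lower), 97 with early prophase scaling and the block (13 higher, 84 lower), 63 with the block without pair 1 (37 higher, 26 lower) and 57 without pair 2 (29 higher, 28 lower); the cause was not tested. The block changed no other call among the genes named.

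Scaling libraries to the early prophase list, which sets the median of all tested genes to -0.20, turned the median of the 6 members other than Ankrd31 to -0.009, and to -0.006 with the block. On that scale, without and with the block, Rec114 had -0.069 and -0.059, Mei1 -0.101 and -0.094, Iho1 -0.044 and -0.040, Smc1b -0.010 and -0.007, Rad21l -0.030 and -0.016, Stag3 -0.094 and -0.091, Hells -0.040 and -0.030, and Zcwpw1 -0.058 and -0.054. Exo1 had -0.085 and -0.071, Rbbp8 -0.052 and -0.043, Mre11a -0.142 and -0.117, Brca2 -0.052 and -0.046, and Sfr1 -0.117 and -0.103. By its construction that scale holds the mean of the list equal between libraries. Leaving out a single library gave Mei1 -0.033 to 0.184, Top6bl -0.017 to 0.481, Rad21l -0.053 to 0.279, Stag3 -0.021 to 0.218 and Zcwpw1 -0.004 to 0.22. None of the 6 members passed in any of the 20 alternatives. The limma voom fit with the block and the early prophase scaling with the block were chosen after seeing the data. Counts were lowest for Spo11 and Mei4, whose lowest libraries held 160 and 180 counts. For Spo11 counting error was 7.91% in wild-type replicate 2, its lowest library. Its spread between wild-type libraries was larger, at 12.0 ± 6.54 CPM (mean and SD).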

Other observations

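The gene 1700102P08Rik overlaps the span of Iho1 on the opposite strand without sharing exon bases. It had 213, 67 and 88 counts in knockout replicates 1 to 3, against 370, 52 and 61 in wild-type replicates 1 to 3, so that replicate 1 was highest in both genotypes, as it was for Spo11 and Top6bl. The pachytene genes Ldhc and Piwil1, of the lactate dehydrogenase and piRNA-binding protein families, were highest in wild-type replicate 1. Of the other 3 genes of the pachytene list, Tbpl1 lay at 58.5 to 61.1 CPM in knockout and 54.8 to 61.7 CPM in wild-type libraries, Ccna1 was highest in wild-type replicate 3 (1.184 CPM) and Pgk2 was at most 0.182 CPM in any library. Piwil1 stood at 8.52, 7.92 and 7.93 CPM in knockout replicates 1 to 3, against 20.9, 8.58 and 8.47 CPM in wild-type replicates 1 to 3. In knockout replicate 1, where Spo11 and Top6bl were as high as in wild-type replicate 1, Piwil1 was near the other libraries.

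The processed pseudogene Gm15896 lies inside the span of Mei4 on the same strand and shares no exon bases with it. It had 75, 76 and 75 counts in knockout replicates 1 to 3, against 67, 81 and 69 in wild-type replicates 1 to 3, with overlapping groups.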
